A study of Mus musculus with 55 samples.

Results

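Open chromatin regions of mouse lung tumour cells that carried no H3K4me3 peak were described. The cells came from a transplanted small cell lung cancer model. Peaks of accessible chromatin from the 2 lung PRM ATAC libraries were merged where they shared at least 1 bp, which gave 58779 regions. Of these, 10789 had a peak in both libraries. A region was kept when it overlapped no H3K4me3 peak of either lung PRM library, which left 2071 regions (19.2% of those open in both libraries). The other 8718 open regions overlapped H3K4me3 and serve as the comparison. The regions were thus chosen by their ATAC and H3K4me3 peaks in lung PRM, and those values are a description.

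PRM tumour cells are mouse lung organoid cells with guides against Trp53 and Rb1 and a Myc-IRES-Luc2 retroviral vector, and PRMK cells carry a guide against Kmt2c in addition. Cells were injected into the left lung lobe of recipient mice, and organoids were then taken from lung tumours (lung PRM and lung PRMK) or from the liver (liver PRM). ATAC-seq, which marks accessible DNA with a transposase, used 20000 cells after 3 days of culture. CUT&Tag, which cuts DNA at an antibody-bound protein, was done for H3K4me1, H3K4me2, H3K4me3 and KMT2C, with 2 libraries a group. In the PRMK libraries of H3K4me2, H3K4me3 and KMT2C an additional guide is listed, against Meis2 in replicate 1 and scrambled in replicate 2, so as labelled these pairs differ in genotype. Strain and age of the recipient mice are not given in the labels. Nor is it stated whether replicates are separate animals, and p-values then measure only the spread between these samples.

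Methylation of histone H3 at lysine 4 marks regulatory DNA in a graded way. H3K4me3 is typical of active promoters, H3K4me1 of enhancers, and H3K4me2 is found at both. KMT2C (MLL3) is the catalytic subunit of a complex that places H3K4me1 at enhancers. Mammalian promoters with many CpG dinucleotides usually carry H3K4me3, because CXXC-domain proteins of the H3K4 methyltransferase complexes bind unmethylated CpG.

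The few promoters that lay inside these regions were poor in CpG. Whole 300-base promoter windows (250 bases before to 50 after a gene start, RefSeq, GRCm38.p6) were found inside the regions 93 times, for 79 genes. These windows held a median of 5 CpG, with quartiles of 2 and 8. Windows inside open regions with H3K4me3 (7349) held a median of 23, and all 32851 promoter windows a median of 7. With 1 window per gene the medians were 4, 23 and 7. A CpG observed-to-expected ratio of 0.6 or more was reached by 11 of the 93 windows (11.8%), against 82.1% inside open regions with H3K4me3 and 35.8% of all windows. The median GC content was 51.7%, 62.7% and 52.7% in the same order. Many of the 79 genes are annotated as long noncoding RNA, and CpG content was not split by gene type. The windows are a description, with no test.

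**Figure D1:**
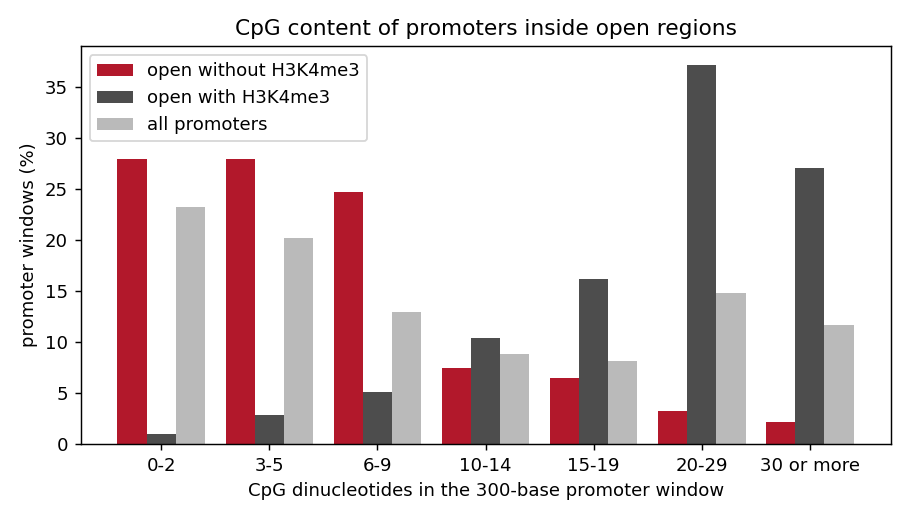
CpG dinucleotides in 300-base promoter windows (x axis, classes of CpG number) against the share of windows (y axis, %), for windows inside open regions without H3K4me3 (red, 93), inside open regions with H3K4me3 (dark grey, 7349) and all promoters (light grey, 32851). Windows without H3K4me3 lie mostly under 10 CpG, and those with H3K4me3 mostly at 15 or more.

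The 250 bases before the gene start are shown for 7 of these genes, with every CpG in capitals. All 7 are protein-coding, and they were chosen after their values were seen. The first 5 show CpG-poor promoters that were open and had H3K4me1 in both lung PRM libraries. A gene can have several starts (32851 starts for 27025 genes), and whether the windows shown hold the starts in use was not examined. Lrp8 RNA ranged from 79.6 to 142 CPM (counts scaled to library size) over the PRMK and PRM libraries. Ptgds RNA was at most 5.53 CPM, and Gast was not among the genes tested. Lrp8 encodes a reelin and apolipoprotein E receptor (chr4:107830703-107830952, plus strand) and Ubxn10 a cilium protein (chr4:138737168-138737417, minus strand). Gast encodes the hormone gastrin (chr11:100334157-100334406, plus strand), S100a4 a calcium-binding protein linked to cell motility (chr3:90603520-90603769, plus strand) and Ptgds a prostaglandin D synthase (chr2:25469750-25469999, minus strand). The last 2 show the CpG-rich exceptions at genes whose RNA differed by DESeq2, Tcam1, a cell adhesion molecule first described in testis (chr11:106276422-106276671, plus strand), and Prickle1, a planar cell polarity protein (chr15:93595903-93596152, minus strand).
Lrp8: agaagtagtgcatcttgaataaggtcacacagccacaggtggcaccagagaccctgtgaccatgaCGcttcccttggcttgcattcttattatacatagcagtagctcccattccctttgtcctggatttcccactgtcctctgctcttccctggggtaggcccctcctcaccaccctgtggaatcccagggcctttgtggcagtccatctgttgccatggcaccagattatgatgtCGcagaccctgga
Ubxn10: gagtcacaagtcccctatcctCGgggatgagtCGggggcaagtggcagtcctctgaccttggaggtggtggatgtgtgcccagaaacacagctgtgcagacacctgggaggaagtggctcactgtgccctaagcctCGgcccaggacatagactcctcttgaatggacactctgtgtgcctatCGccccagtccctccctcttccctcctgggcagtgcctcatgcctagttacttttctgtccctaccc
Gast: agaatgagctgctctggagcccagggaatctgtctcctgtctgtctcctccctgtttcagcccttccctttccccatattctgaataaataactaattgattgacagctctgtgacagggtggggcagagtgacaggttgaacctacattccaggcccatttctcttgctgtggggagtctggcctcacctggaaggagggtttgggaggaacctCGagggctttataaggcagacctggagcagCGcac
S100a4: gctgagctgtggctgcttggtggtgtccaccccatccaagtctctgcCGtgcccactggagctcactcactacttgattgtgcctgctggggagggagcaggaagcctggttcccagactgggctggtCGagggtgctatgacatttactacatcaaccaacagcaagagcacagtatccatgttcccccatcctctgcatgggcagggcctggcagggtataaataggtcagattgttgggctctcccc
Ptgds: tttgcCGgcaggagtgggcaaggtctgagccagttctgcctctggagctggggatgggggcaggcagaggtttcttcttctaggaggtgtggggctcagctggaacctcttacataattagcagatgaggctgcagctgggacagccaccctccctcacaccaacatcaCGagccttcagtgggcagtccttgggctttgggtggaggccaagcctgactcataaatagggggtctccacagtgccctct
Tcam1: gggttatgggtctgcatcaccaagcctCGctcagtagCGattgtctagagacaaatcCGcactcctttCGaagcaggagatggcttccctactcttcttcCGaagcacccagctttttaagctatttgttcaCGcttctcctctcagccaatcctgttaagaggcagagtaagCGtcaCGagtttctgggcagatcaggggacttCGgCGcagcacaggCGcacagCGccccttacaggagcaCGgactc
Prickle1: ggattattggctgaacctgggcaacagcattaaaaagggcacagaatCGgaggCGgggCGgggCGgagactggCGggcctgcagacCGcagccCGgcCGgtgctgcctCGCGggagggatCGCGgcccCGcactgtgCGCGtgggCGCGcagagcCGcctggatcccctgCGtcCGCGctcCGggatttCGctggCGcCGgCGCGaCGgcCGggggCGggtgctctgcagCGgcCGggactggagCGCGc
These 250 bases held 2 CpG for Lrp8, 4 for Ubxn10, 2 each for Gast, S100a4 and Ptgds, 13 for Tcam1 and 34 for Prickle1. The regions over the Lrp8 and Ubxn10 windows had H3K4me1, H3K4me2 and KMT2C peaks in both lung PRM libraries and in both lung PRMK libraries. Those of Gast, S100a4 and Ptgds had H3K4me1 and KMT2C in both lung PRM libraries, with H3K4me2 in 1 library for S100a4 and Ptgds and in none for Gast. The Tcam1 region had no peak of H3K4me1, H3K4me2 or KMT2C in lung PRM. The Prickle1 region had no H3K4me1 or H3K4me2 peak in lung PRM, a KMT2C peak in 1 library, and H3K4me2, H3K4me3 and KMT2C peaks in both lung PRMK libraries.

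Exact words of 15 motifs were counted on both strands of the windows. The GC box CCGCCC, the core of SP factor sites, was present in 15 of the 93 windows (16.1%), against 70.7% of windows in open regions with H3K4me3 and 35.7% of all windows. The ETS word CCGGAAG was present in 3.23%, 19.6% and 8.86%. The E-box CAGCTG was present in 25 windows (26.9%), against 14.3% and 16.3%. The E-box CAGATG was present in 23.7%, 9.88% and 17.2%, and the AP-1 word TGANTCA in 10.8%, 3.86% and 7.81%. Of the others, the FOX word TGTTTAC was present in 5.38% and 3.65% of all windows, the TEAD word GGAATG in 17.2% and 14.7%, the MEIS word TGACAG in 17.2% and 19.2%, and the NRF1 word in 0 windows and 0.971%. These shares rest on 0 to 25 of 93 windows and have no test. A match is not a binding site, and several windows of 1 gene overlap.

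The regions were short and lay away from gene starts. Their median length was 2350 bp (quartiles 1750 and 3205, range 670 to 40380), against 2860 bp for open regions with H3K4me3, and 11 were longer than 10 kb. Chromosome 18 has no gene starts in the table used, so its 61 regions could not be assigned. The centres of the other 2010 lay a median of 20570 bp from the nearest gene start, against 847 bp for open regions with H3K4me3. Within 1 kb of a start were 65 regions (3.23%), against 53.2% of the regions with H3K4me3, and 26.8% lay over 50 kb away, against 9.08%. Of the 1945 regions beyond 1 kb, 54.4% lay inside a gene, against 61.4%. H3K4me3 marks promoters, so the rule itself leaves out most regions at gene starts.

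**Figure D2:**
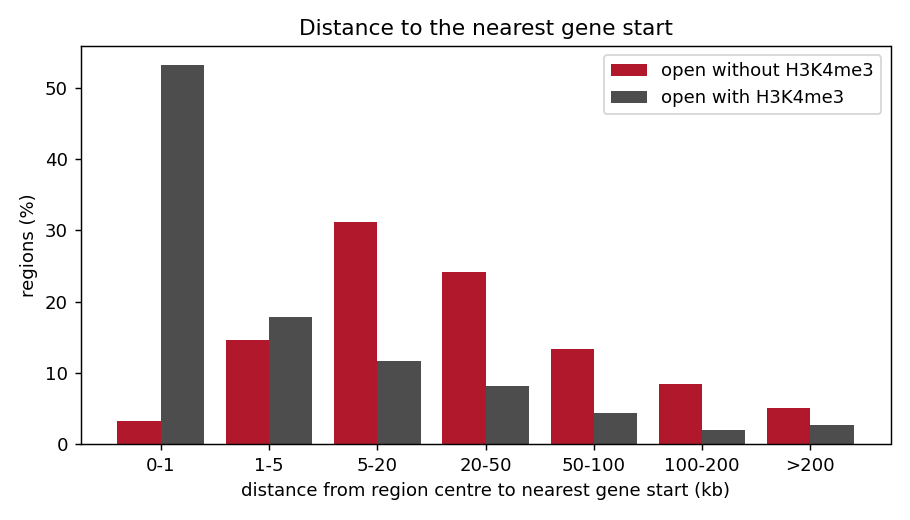
Distance from the region centre to the nearest gene start in kb (x axis, classes) against the share of regions (y axis, %). Of regions without H3K4me3 (red), 3.23% lie within 1 kb and 31.1% between 5 and 20 kb, while 53.2% of regions with H3K4me3 (grey) lie within 1 kb.

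The rule is sharp at its edge. The closest region lay 1 bp from an H3K4me3 peak, 117 lay within 500 bp and 207 within 1 kb, with a median distance of 19193 bp. Just outside the rule, 44 regions were left out for less than 200 bp of H3K4me3, the smallest overlap being 2 bp, and 1107 regions had H3K4me3 in 1 library only. The median ATAC score was 27 in each library for the regions kept, against 37 and 41 for regions with H3K4me3. Library 2 had 19834 ATAC peaks and library 1 had 64596, so library 2 limited the set: 43690 regions were open in library 1 only and 4300 in library 2 only.

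The regions were unevenly spread over chromosomes. Chromosome 2 held 418 of them, 33.4% of its 1251 open regions. Chromosome 5 held 28 of 297 (9.43%), chromosome 14 held 4 of 67 (5.97%) and chromosome X 1 of 82 (1.22%). ATAC library 2 listed 2879 peaks on chromosome 2 and 1164 on chromosome 1, while the H3K4me1 lists of lung PRM held 2877 and 2697 peaks on chromosome 2 and 2194 and 2025 on chromosome 1. DNA copy number was not measured, and its part in these counts was not tested.

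In lung PRM, H3K4me1 was found on more of these regions than H3K4me2 or KMT2C. There, 75.6% and 73.3% of the regions overlapped an H3K4me1 peak in libraries 1 and 2, against 40.9% and 37.3% of open regions with H3K4me3. In lung PRMK the shares were 67.3% and 56.4%, against 47.0% and 34.3%, and in liver PRM 73.2% and 80.1%, against 36.3% and 49.6%. The regions without H3K4me3 were therefore higher in 6 of 6 libraries, by 20.2 to 36.9 percentage points. An exact permutation test that flips the sign of the difference in each library gave a two-sided p of 0.03125, the smallest that 6 libraries allow, and 0.0469 after Benjamini-Hochberg adjustment over 6 such tests. Among regions more than 1 kb from a start the difference was smaller, 3.40 to 18.1 points, and again higher in 6 of 6 libraries (exact permutation p = 0.03125, adjusted 0.0469). The libraries share the same regions, split by the H3K4me3 peaks of the rule, and the comparison was chosen after the data were seen. The signs of the libraries are therefore not independent. The test says only that the libraries went the same way, and its p-values are no support for a difference beyond the rule. It does not treat regions as replicates.

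H3K4me2 and KMT2C were less frequent on these regions than on open regions with H3K4me3. H3K4me2 was found on 27.7% and 29.0% of them in lung PRM and 46.7% and 33.0% in lung PRMK, against 93.6% to 97.3% of regions with H3K4me3. The share was lower in 4 of 4 libraries, and 4 libraries cannot give an exact permutation p under 0.125. KMT2C peaks lay on 29.4% and 41.5% of the regions in lung PRM, 71.5% and 69.0% in lung PRMK and 70.0% and 80.1% in liver PRM. The same libraries had KMT2C on 56.7% and 72.0%, 93.2% and 92.9%, and 92.5% and 96.7% of the regions with H3K4me3. KMT2C was lower by 16.6 to 30.6 points in 6 of 6 libraries (exact permutation p = 0.03125, adjusted 0.0469), and by 14.8 to 29.2 points beyond 1 kb from a start. The limits given for H3K4me1 apply here too, since these libraries share the same regions and the same split by H3K4me3.

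**Figure D3:**
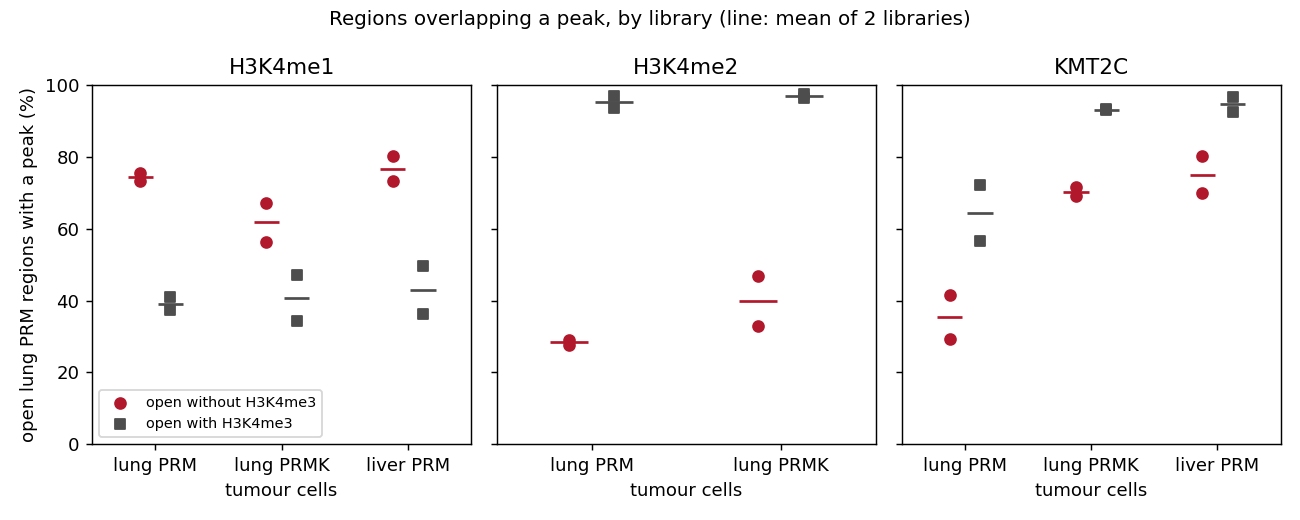
Share of open lung PRM regions that overlap a peak (y axis, %) by tumour cells (x axis), in panels for H3K4me1, H3K4me2 and KMT2C, with 1 point a library and a line at the mean of 2 libraries. Regions without H3K4me3 (red circles) lie above those with H3K4me3 (grey squares) for H3K4me1, between 56.4% and 80.1%, and below them for H3K4me2 and KMT2C.

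Marks combined on single regions as follows. In both lung PRM libraries 1483 regions (71.6%) had H3K4me1, 335 (16.2%) H3K4me2 and 567 (27.4%) KMT2C. Of the regions whose libraries agreed for every mark, 376 had H3K4me1 alone, 221 H3K4me1 with KMT2C, 124 H3K4me1 with H3K4me2, and 142 all 3 marks. KMT2C alone was found on 21 regions, H3K4me2 alone on 10, H3K4me2 with KMT2C but no H3K4me1 on 0, and 348 had none of the 3 marks. The remaining 829 had some mark in 1 library only. Among these classes, regions with all 3 marks were longest, with a median of 3325 bp, and those with none shortest, at 1945 bp. The regions with none lay closest to a gene start among these large classes, at a median of 7511 bp, against 29346 bp for H3K4me1 alone.

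KMT2C peaks were more frequent where H3K4me1 was present. Of the 1483 regions with H3K4me1 in both lung PRM libraries, 37.8% and 51.2% had KMT2C in libraries 1 and 2, against 6.17% and 14.04% of the 470 regions with no H3K4me1 peak. H3K4me2 was present on 35.3% and 36.7% of the first and 7.87% and 7.45% of the second. H3K4me1 was present in all 6 H3K4me1 libraries on 1022 regions (49.3%) and in none on 299 (14.4%). Over all 16 libraries of the 3 marks, 98 regions had a peak in every library and 37 in none.

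The highest H3K4me1 peaks over regions that also had H3K4me2 included 2 neighbouring regions near Lrig1, which encodes a negative regulator of ERBB receptors. Levels are given as the percentile of the peak's total signal in its own list, since depth is not stated and signal cannot be compared between libraries, and a peak can span several regions. The regions chr6:94628021-94632760 and chr6:94636771-94639270 lay 69.8 and 62.1 kb from the Lrig1 start under 1 H3K4me1 peak at percentile 100.0 in both lung PRM libraries, and at 100.0 and 99.9 in lung PRMK. Their H3K4me2 peaks were at percentiles 18.8 and 56.7 for the first and 99.1 and 83.1 for the second. The region chr5:124217331-124228020, 27.1 kb from the start of Pitpnm2, a phosphatidylinositol transfer protein, had H3K4me1 at percentile 100.0 in all 4 lung libraries and KMT2C at 99.6 and 99.4 in lung PRM. The other 3 regions of this kind were chr11:119813731-119819050, with Baiap2 as nearest protein-coding gene, and 2 on chromosome 18.

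The highest KMT2C peaks lay near Cry2, which encodes a circadian repressor. The regions chr2:92421071-92426300 and chr2:92426651-92429310, 10.4 and 6.1 kb from its start, shared a KMT2C peak at percentile 99.9 in both lung PRM libraries, with H3K4me1 at 97.8 in both. The region chr19:5678851-5683880 near Pcnx3 had KMT2C at 99.8 in both libraries but no H3K4me1 or H3K4me2 peak in any lung library. The region chr12:56249611-56256260, 93.0 kb from Mbip, had KMT2C at 99.6 and 99.7 and H3K4me1 at 98.1 in both, with no H3K4me2 in lung PRM. High KMT2C was thus found both with and without H3K4me1.

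In lung PRMK, H3K4me1 was lost from more of these regions than gained it. A region is called lost when both lung PRM libraries and neither lung PRMK library had a peak, and gained in the reverse case. H3K4me1 was lost from 212 regions (10.2%) and gained on 48 (2.32%), with 1045 keeping it in all 4 libraries. Over all 10789 open regions 4.2% were lost and 3.16% gained. Regions with H3K4me3 lost it in 2.76% and gained it in 3.36% of cases. Only the 1483 regions with H3K4me1 in both lung PRM libraries could lose it, and only the 470 with no peak could gain it. Among regions with H3K4me3, 241 of 3072 lost it and 293 of 4968 gained it. These shares thus depend on how many regions had the mark at the start. The mean share with a peak was 74.5% ± 1.57 (SD, n = 2) in lung PRM and 61.8% ± 7.68 (SD, n = 2) in lung PRMK, a difference of -12.6 points, and the libraries of the groups did not overlap. The exact two-sided permutation p was 0.333, the smallest that 2 libraries against 2 allow. Regions with H3K4me3 differed by 1.54 points. The lists covered 124.7 and 111.4 Mb in lung PRM and 147.5 and 77.4 Mb in lung PRMK, so PRMK library 1 had a lower share than either PRM library with a longer coverage, and PRMK library 2 had the lowest share and the shortest coverage. With all H3K4me1 lists shortened to the same number of peaks the difference was -17.7 points. Without PRMK library 1 the lost count was 411. Among the 4757 regions that ATAC library 2 alone gives it was 426, and among the 39546 that library 1 alone gives 3330.

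The regions that lost H3K4me1 in lung PRMK lay mostly away from gene starts and mostly had no peak in PRMK ATAC library 2. Of the 212, 45 (21.2%) had KMT2C in both lung PRM libraries, 30 (14.2%) had an ATAC peak in that library and 2 lay within 1 kb of a start. H3K4me1 was present in both liver PRM libraries on 196 of them, against 1424 of all 1483 regions with H3K4me1 in both lung PRM libraries. Of all 2071 regions, 693 (33.5%) were open in PRMK ATAC library 2. Library 1 listed 593 peaks in all, and the liver ATAC lists 345 and 141 peaks, some megabases long, so these 3 lists were not used.

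Some regions that lost H3K4me1 lay under peaks of high total signal in lung PRM. Loss was called over the region, and the rest of such a peak was not examined in lung PRMK. Near Ice2, a subunit of the little elongation complex, the regions chr9:69292931-69296600 and chr9:69304731-69307260 shared a peak at percentile 99.9 in both lung PRM libraries and had none in lung PRMK. Near Prkcb, protein kinase C beta, the region chr7:122366451-122368710 had H3K4me1 at 99.7 in both lung PRM libraries. Near Sox6, which encodes an SRY-related transcription factor, chr7:115765571-115768400 had H3K4me1 at 99.4 in both and no peak of any mark in lung PRMK. Near Robo1, an axon guidance receptor, chr16:72699055-72701314 had H3K4me1 at 98.8 in both. Near Crocc, the ciliary rootlet protein rootletin, chr4:141061941-141063790 lost H3K4me1 (98.6 and 98.0) while its H3K4me2 peak was at 93.4 and 84.5 in lung PRM and at 87.4 and 86.7 in lung PRMK.

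The 48 regions that gained H3K4me1 lay nearer to gene starts, at a median of 7223 bp against 38906 bp for those that lost it, and 25 of them (52.1%) were open in PRMK ATAC library 2. Only regions without H3K4me1 in lung PRM could gain it, and such regions already lay nearer. In lung PRM, regions with none of the 3 marks lay at a median of 7511 bp, against 29346 bp for H3K4me1 alone. Of the 470 regions with no H3K4me1 peak in lung PRM, 37.0% were open in PRMK ATAC library 2. The highest was chr1:172492381-172495200, 6.5 kb from the start of Tagln2, an actin-binding protein. It had no peak of the 3 marks in lung PRM, and in lung PRMK it had H3K4me1 at percentiles 98.2 and 94.6, H3K4me2 at 99.6 and 98.7 and KMT2C at 93.4 and 91.7. Regions near Nfkb2, an NF-kappa-B subunit (chr19:46313591-46315760, 96.5 and 88.9), and near Lbh, a transcription cofactor (chr17:72921181-72923280, 95.2 and 85.1), also gained it. The others named by the rule lay near Ube2r2, C130026I21Rik and Trak1.

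H3K4me2 was gained on more regions than it was lost from, with 158 regions (7.63%) gained and 30 (1.45%) lost in lung PRMK. Over all open regions 1.99% were gained and 0.853% lost. Only regions with no H3K4me2 peak in lung PRM could gain it, 1231 of these regions and 114 of those with H3K4me3. Gains were found on 158 of the 1231 and on 57 of the 114, a smaller share of the regions without H3K4me3. Loss was possible for 335 and 8002 regions, of which 30 and 62 lost it. The mean share was 28.4% ± 0.922 (SD, n = 2) in lung PRM and 39.9% ± 9.66 (SD, n = 2) in lung PRMK, a difference of 11.5 points (exact two-sided permutation p = 0.333). The groups did not overlap, but the 2 PRMK libraries, which carry different additional guides, differed by more than the PRM libraries. With equal list lengths the shares were 27.7% and 21.5% in lung PRM and 28.0% and 27.5% in lung PRMK, so that the groups overlapped, and the gained count was 102. Of the 158 regions, 118 (74.7%) had H3K4me1 in both lung PRM libraries, 6 (3.80%) also gained H3K4me1 and 13 (8.23%) had H3K4me3 in both lung PRMK libraries.

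The 6 gains of H3K4me2 with the highest total peak signal in lung PRMK lay within 10 kb of protein-coding starts. Near Zbtb38, a methyl-CpG binding zinc finger protein, chr9:96709591-96710970 had no H3K4me2 peak in lung PRM and peaks at percentiles 99.7 and 99.4 in lung PRMK, with H3K4me1 at 95.5 and 94.4 in lung PRM. Near Ube2v1, a ubiquitin-conjugating enzyme variant, chr2:167624821-167626560 reached 99.7 and 99.3 over an H3K4me1 peak at 99.8 and 99.7 in lung PRM. Near Triobp, an actin-bundling protein, chr15:78979431-78980820 reached 99.5 and 99.3. The others were the Tagln2 region, chr9:61365771-61367480 near Tle3, a Groucho co-repressor (99.3 and 98.8), and chr13:54943531-54945580 near Unc5a, a netrin receptor (96.6 and 96.4). By total peak signal, the highest loss lay near Mta1, a subunit of the NuRD complex (chr12:113106171-113109630, 86.8 and 90.8 in lung PRM). The next lay near Myo18a, an unconventional myosin (chr11:77794731-77797140, 61.1 and 71.7 in lung PRM). Of the 30 regions that lost H3K4me2, 11 (36.7%) also lost H3K4me1.

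H3K4me3, absent in lung PRM by the rule, was found in lung PRMK on 6.18% and 3.09% of the regions in libraries 1 and 2. In both libraries it was found on 39 regions (1.88%), of which 8 had H3K4me2 in both lung PRM libraries and 5 lay within 1 kb of a start. Promoter windows of Prickle1, Ptgds, Ebi3, Elmo2, Rab3il1 and Gm16907 were inside such regions. Since H3K4me3 peaks of lung PRM were used to choose the regions, this is a description.

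KMT2C peaks were more frequent in lung PRMK than in lung PRM, although PRMK carries the guide against Kmt2c. On these regions 562 (27.1%) gained and 49 (2.37%) lost a KMT2C peak, against 20.6% and 0.769% over all open regions. Only regions with no KMT2C peak in lung PRM could gain one, 1171 of these regions and 2292 of those with H3K4me3. Gains were found on 562 of the 1171 and on 1662 of the 2292, a smaller share of the regions without H3K4me3. The mean share was 35.4% ± 8.57 (SD, n = 2) in lung PRM and 70.2% ± 1.78 (SD, n = 2) in lung PRMK, a difference of 34.8 points (exact two-sided permutation p = 0.333). The PRMK lists held 187682 and 134561 peaks and the PRM lists 9949 and 16681. When each list was shortened to its 9949 highest peaks, the shares were 29.4% and 28.1% in lung PRM and 16.3% and 18.9% in lung PRMK, a difference of -11.1 points. With a peak required to cover 50% of a region, the difference was 6.95 points over 2811 regions. The direction for KMT2C therefore depended on how many peaks each list held.

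Few regions gained or lost H3K4me1 between lung PRM and liver PRM cells. H3K4me1 was kept on 1424 regions, gained on 23 (1.11%) and lost from 5 (0.241%), while over all open regions 1.25% were gained and 0.306% lost. The mean share was 76.6% ± 4.92 (SD, n = 2) in liver PRM, 2.17 points above lung PRM, the libraries overlapped between groups and the exact permutation p was 1. Without liver library 2 the difference was -1.30 points. KMT2C was gained on 567 regions (27.4%) and lost from 12 (0.579%), against 20.7% and 0.195% over all open regions. Of regions with no KMT2C peak in lung PRM, 567 of 1171 gained one, against 1670 of 2292 with H3K4me3. The share was 39.6 points higher in liver PRM, and -0.97 points with lists of equal length. Both comparisons share the lung PRM libraries with those of lung PRMK.

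**Figure D4:**
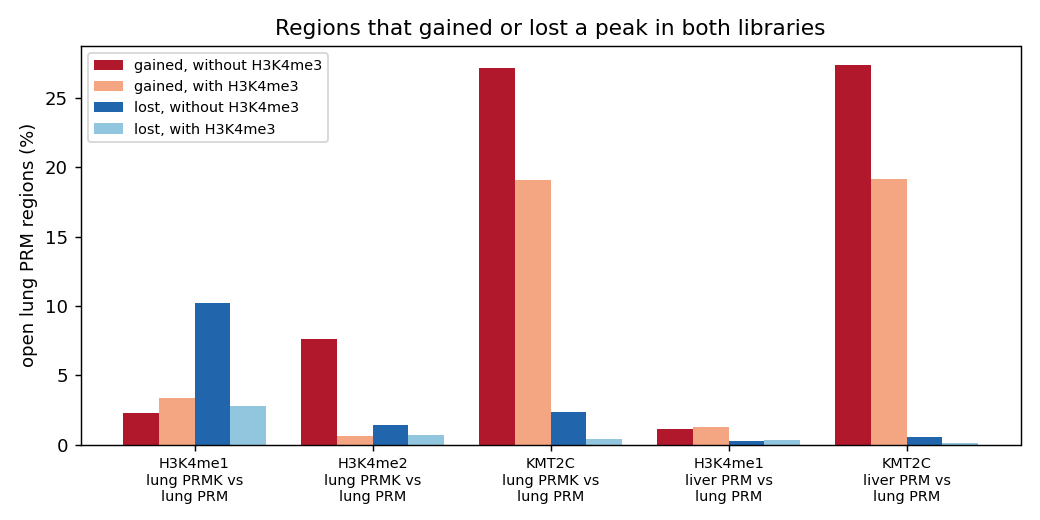
Share of open lung PRM regions (y axis, %) that gained (red, orange) or lost (blue, light blue) a peak in both libraries, for 5 comparisons (x axis), for regions without and with H3K4me3. Loss of H3K4me1 in lung PRMK reaches 10.2% of regions without H3K4me3 and 2.76% of those with it, and gain of KMT2C reaches 27.1% and 27.4% in the KMT2C comparisons. Shares are of all regions of a set, including those that could not gain or lose a peak.

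The nearest gene start, of any gene type, belonged to 1590 genes, of which 292 had 2 or more regions. Many were noncoding, and 798 were in the RNA count table. The nearest protein-coding start, a choice added after the data were seen, named 1380 genes at a median distance of 42828 bp, and 1157 of them (83.8%) were in the RNA table, against 93.5% for open regions with H3K4me3. Distance alone does not link a region to a gene. Most regions by this count had Ralgapa2, a subunit of the Ral GTPase-activating complex, and Gm11780, with 11 each. The Ralgapa2 regions lay 48727 to 258443 bp from its start on chromosome 2, where 10 of 11 had H3K4me1 in both lung PRM libraries and 8 in both lung PRMK libraries. The Gm11780 regions lay 2188793 bp or more from its start.

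Other genes with 5 or 6 regions are described after their counts were seen. Foxa2, a pioneer factor of lung endoderm, had 6 regions 70.9 to 263.0 kb away. H3K4me1 was present in both lung PRM libraries on 5 of them and in both lung PRMK libraries on 4, and KMT2C in both lung PRM libraries on 0 and in both lung PRMK libraries on 3. The highest, chr2:147972361-147976760, had H3K4me1 at percentiles 97.2 and 97.3 in lung PRM and 99.7 and 99.1 in lung PRMK. Nrp2, a semaphorin and VEGF co-receptor, had 6 regions, 5 with H3K4me1 in both lung PRM libraries and 3 in both lung PRMK libraries, and 2 called lost. Robo1 had 6 regions, all with H3K4me1 in both lung PRM libraries, of which 3 were called lost in lung PRMK and 2 gained H3K4me2. Casz1, a zinc finger transcription factor, had 5 regions, all with H3K4me1 in both libraries of each lung group.

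Over all 17491 protein-coding genes with a start, 1380 were nearest to a region. Of 32 neuroendocrine genes listed, 7 had a region by the nearest protein-coding start, 18 regions in all, and 18 had an open region with H3K4me3. The 7 were Foxa2, Resp18, Sox11, Prox1, Id2, Sox2 and Nfia, and Insm1, Chga and Syp were not among them. By the nearest start of any gene type, 3 of the 32 had a region. The Sox11 regions lay 158.0 to 277.4 kb from its start, and the Id2 regions 94.2 to 136.2 kb. For Prox1, a homeobox factor, chr1:190138181-190139330 lay 30.8 kb from the start. It had H3K4me1 at percentiles 99.8 and 99.8 in lung PRM and 99.9 and 100.0 in lung PRMK. For Sox2, chr3:34908031-34909550 lay 258.8 kb from the start. It had H3K4me1 at 84.2 and 84.5 in lung PRM, and at 4.9 in 1 library and no peak in the other in lung PRMK. Of 21 drivers and epigenetic regulators, Dnmt3a and Meis1 had 1 region each. The region 45.3 kb from Dnmt3a, a de novo DNA methyltransferase (chr12:3760831-3762430), had H3K4me1 at 86.1 and 83.9 in lung PRM and 88.9 and 89.7 in lung PRMK, and KMT2C in all 4 lung libraries. Of 18 Notch and YAP genes 1 had a region, Jag2, a Notch ligand, and chr12:112921521-112923620 had all 3 marks in both libraries of each lung group. Of 16 epithelial genes 1 had a region, Krt7, and of 10 AP-1 genes 0.

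RNA of the nearest genes was compared between 3 PRMK and 3 PRM lung libraries, with 12013253 to 24123055 counts each. A stranded kit is named for the PRM libraries only, so in all RNA results below preparation and genotype cannot be told apart. Kmt2c was 85.1, 84.4 and 104.6 CPM (counts scaled to library size) in PRMK and 113.3, 186.6 and 67.6 in PRM, groups that overlapped, and the PRMK RNA samples list no Kmt2c guide among their plasmids. Myc, the gene of the retroviral vector, was 273, 312 and 205 CPM in PRMK against 1140, 2306 and 2059 in PRM, without overlap. Its log2 fold change was -2.80 ± 0.36 (edgeR adjusted p = 0.158, DESeq2 adjusted p = 1.6e-10). The part of this Myc difference in the RNA results below was not tested. Neuroendocrine markers were low in 1 PRM library, numbered 6 in the count table: Chga, which encodes the granule protein chromogranin A, was 1334, 867 and 3.56 CPM in PRM and 713, 634 and 1028 in PRMK. The summed level of the 5 neuroendocrine markers in the table ran from 3018 to 5237 CPM in PRMK and from 83.9 to 4881 in PRM. Summed immune markers ran from 376 to 560 CPM in PRMK and 5.44 to 443 in PRM, fibroblast markers from 53.5 to 215 and 2.58 to 241, and hepatocyte markers reached at most 3.36. Most of the immune sum in PRMK was Lyz2, at 358, 427 and 536 CPM, against 420, 1.35 and 78.2 in PRM. Cd68 was 16.4, 19.5 and 21.5 CPM in PRMK and 19.2, 2.02 and 7.92 in PRM. Ptprc and Cd3e were not among the genes counted, so their levels are not known. The part of cell makeup in the results that follow was not tested. In bulk samples, fewer cells of a type and less RNA per cell cannot be told apart.

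DESeq2 calls among the nearest genes went in both directions. edgeR's quasi-likelihood test called 0 of 729 nearest genes tested at an adjusted p under 0.05 and 0 of 13914 genes in all (0%), with 107 and 2384 at an unadjusted p under 0.05. DESeq2 called 51 of the 729, 21 higher and 30 lower in PRMK. Over all genes tested DESeq2 called 8.75%, 3.9% higher and 4.86% lower, and 7.00% of the nearest genes is close to that background. The median log2 fold change was -0.01 for the nearest genes and -0.02 for all genes tested. By nearest protein-coding start, DESeq2 called 84 of 1073 genes (7.83%), 37 higher and 47 lower. Genes nearest to regions that lost H3K4me1 had 11 of 132 called (8.33%), 4 higher and 7 lower, with a median log2 fold change of -0.12. Genes nearest to regions that gained H3K4me2 had 9 of 110 called (8.18%), with a median of 0.02. Without PRM library 4, edgeR called 31 nearest genes, 14 of them higher, and 793 of all genes.

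Among genes called by DESeq2 that were nearest by either assignment, the following were higher in PRMK, with edgeR log2 fold changes ± SE and DESeq2 adjusted p (edgeR's adjusted p was 0.158 to 0.237 for each). Edn3, the peptide ligand endothelin 3, had 4 regions and 123, 266 and 72.1 CPM in PRMK against 1.78, 0.11 and 0 in PRM (log2 fold change 7.83 ± 1.42, DESeq2 adjusted p = 6e-08). Frem2, a basement membrane protein, had 27.1, 24.01 and 25.5 CPM against 1.67, 1.79 and 0.979 (4.09 ± 0.40, DESeq2 adjusted p = 1.8e-29). Cdh20, a cadherin, had 221, 309 and 131 CPM against 23.1, 9.47 and 0.356 (4.32 ± 1.23, DESeq2 adjusted p = 0.0028). Thsd4, a microfibril-associated ADAMTS-like protein with 5 regions, had 414, 275 and 254 CPM against 99.1, 50.1 and 39.7 (2.32 ± 0.42, DESeq2 adjusted p = 5.7e-05). Meis1, a TALE homeobox factor with 1 region 119.8 kb away, had 47.3, 32.1 and 39.8 CPM against 5.80, 6.89 and 15.7 (2.07 ± 0.46, DESeq2 adjusted p = 0.0022). Oprd1, the delta opioid receptor, Cntn4, Tafa1, Matn4, Dapk2 and Slc35f3 were also higher, by 3.06 to 5.37 on the log2 scale. Their mean levels in PRM were only 0.409 (Matn4) to 2.14 CPM (Tafa1), with Oprd1 at 0.937, so these fold changes rest on levels near the floor. The limit of 1 CPM was set on the mean over both groups, and genes low in PRM could pass it through PRMK.

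Lower in PRMK was Nrp2, with 22.03, 43.7 and 28.1 CPM in PRMK against 140, 318 and 240 in PRM (log2 fold change -2.89 ± 0.42, DESeq2 adjusted p = 9.2e-08). Tcam1 and Prickle1, whose CpG-rich promoters are printed above, had 1.41, 1.31 and 0.871 against 12.2, 12.8 and 6.32 CPM (-3.12 ± 0.51, DESeq2 adjusted p = 4.6e-08) and 2.01, 1.93 and 2.73 against 18.6, 26.1 and 6.23 (-2.93 ± 0.62, DESeq2 adjusted p = 0.00018). Prickle1 RNA was thus lower in PRMK, where its promoter region had H3K4me2 and H3K4me3 peaks. Odc1, the first enzyme of polyamine synthesis, had 122, 143 and 125 CPM against 192, 389 and 617 (-1.62 ± 0.42, DESeq2 adjusted p = 0.016). Adamts20, Dlk1, Itpr3, Ube2v1 and Txnrd3 were also lower, with log2 fold changes of -4.48 to -1.55, Dlk1, a Notch ligand-like protein, being at -4.48. The mean PRMK level was 0.36 CPM for Dlk1 and 1.18 for Adamts20, near the floor. Trib2 and Rpl14, with 3 regions each by protein-coding start, were lower (-1.16 and -1.13), and Cmpk2, also with 3, was higher (2.00). Most genes named here were chosen for groups that do not overlap, and for Adamts20 the highest PRMK level was 1.775 CPM and the lowest PRM level 1.780. Leaving out 1 PRM library moved several values. Without PRM library 5, Dlk1 was at -2.88 and Adamts20 at -3.00, and without PRM library 4, Itpr3 was at -1.19, Edn3 at 10.99, and Cntn4 and Tafa1 at 5.85. Without that library edgeR's adjusted p was 0.0384 for Edn3, Frem2, Thsd4 and Nrp2, 0.0394 for Odc1 and 0.0469 for Tcam1. The Ube2v1 region gained H3K4me2, and Ube2v1 RNA was 0.322, 0.313 and 0.317 CPM in PRMK against 2.04, 2.52 and 0.801 in PRM. These levels are close to the floor, and the gene reached the limit of 1 CPM only through its PRM libraries.

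**Figure D5:**
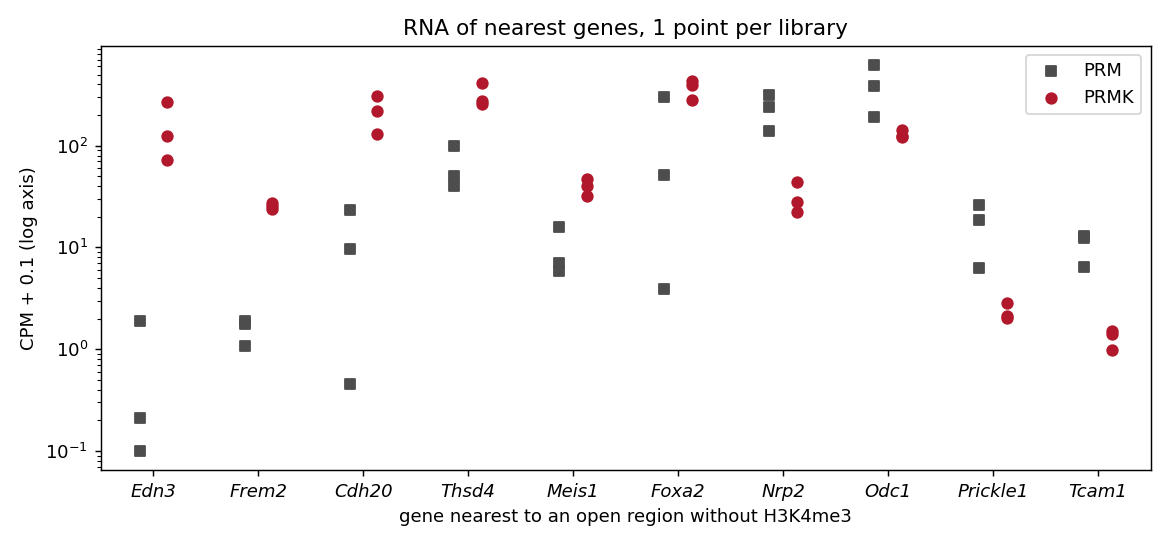
RNA level (y axis, CPM + 0.1, log axis) of 10 genes nearest to open regions without H3K4me3 (x axis), with 1 point a library, 3 PRM (grey squares) and 3 PRMK (red circles). Edn3, Frem2, Cdh20, Thsd4 and Meis1 lie higher and Nrp2, Odc1, Prickle1 and Tcam1 lower in PRMK, and the groups overlap for Foxa2.

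Genes of the fixed lists with regions mostly did not pass either test. Foxa2 was 392, 284 and 434 CPM in PRMK and 301, 51.7 and 3.83 in PRM, groups that overlapped (log2 fold change 1.64 ± 1.26, edgeR adjusted p = 0.529), and without PRM library 4 the fold change was 3.71 (edgeR adjusted p = 0.112). Prox1 was 655, 672 and 558 against 569, 370 and 8.99 (0.99 ± 1.14, edgeR adjusted p = 0.673), with 1.71 without PRM library 4 and 0.42 without library 6. For both, the lowest value was that of PRM library 6. Dnmt3a was 328, 334 and 341 CPM in PRMK and 218, 238 and 102 in PRM, without overlap (0.85 ± 0.34, edgeR adjusted p = 0.281, DESeq2 adjusted p = 0.16). Crocc, whose nearby region lost H3K4me1, was 62.0, 63.1 and 53.5 CPM against 32.0, 32.8 and 39.6 (0.77 ± 0.20, edgeR adjusted p = 0.207, DESeq2 adjusted p = 0.011).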

How the data were processed

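The regions, gene lists and comparisons were chosen with earlier results of these data known. ATAC reads were aligned with Bowtie2 2.2.1 to mm10, per the submitters' processing notes, and each deposited gapped peak has the score its caller wrote. No source used here names the ATAC caller. CUT&Tag reads were aligned with Bowtie2 to mm10 and peaks called with SEACR, per the submitters' processing notes, and the deposited lists give the signal over each peak of each library, with no depth stated. No source used here names the SEACR control. RNA reads were aligned with STAR 2.6.0a to GRCm38, per the submitters' processing notes, and the deposited values are raw counts. A stranded kit is named only for PRM RNA, so preparation and genotype cannot be told apart. The PRM RNA columns are numbered 4 to 6 and the titles 3 to 5.

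Peaks were overlapped (1 bp) in Python 3.11.15 with pandas 2.3.3 and scipy 1.17.1. Gene starts, names and promoter sequences came from RefSeq tables of GRCm38.p6. Sequences at region centres, exons and UTRs were not analysed here, because no genome was used, and promoter windows stood in for the planned centre windows. Groups of 2 libraries were compared by exact permutation. RNA was tested in R 4.3.3 with edgeR 4.0.16 (quasi-likelihood, TMM, edgeR's filter on low counts, Benjamini-Hochberg adjusted p under 0.05) and DESeq2 1.42.0 as an alternative. CPM were scaled by TMM. Scripts were tested on simulated data. Named regions were the 6 with the highest H3K4me1, the 4 with the highest KMT2C, the 6 highest gains and losses of H3K4me1 and H3K4me2, and those at listed genes. Named genes were those with most regions, those of the lists, and the 8 largest and 8 smallest fold changes among DESeq2 calls whose groups did not overlap and whose mean level reached 1 CPM. DESeq2 calls with 3 or more regions, and Crocc, were added after their values were seen.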

Additional observations from a re-analysis of the deposited data

How the results depend on the processing

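The differences in share kept their direction under 67 of 70 alternatives, and 81 of 140 counts of gained or lost regions stayed within 1.5 times. With lists of equal length, KMT2C reversed to -11.1 points in lung PRMK (90 gained, 298 lost) and -0.97 in liver PRM (98 gained, 125 lost), H3K4me2 gains fell to 102, and 19 regions lost H3K4me1 in liver. With overlap counted only where a peak covers 50% of a region, 2811 regions were found, the KMT2C difference in lung PRMK was 6.95 points, H3K4me2 was lost from 54, KMT2C gained on 235 and lost from 148 in lung PRMK, and in liver 13 lost H3K4me1 and 22 KMT2C. With ATAC peaks in the upper part by score, 935 regions remained. In lung PRMK, H3K4me1 was then gained on 12 and lost from 108, H3K4me2 gained on 70 and lost from 17, and KMT2C gained on 222. In liver PRM, 11 gained and 1 lost H3K4me1 and 210 gained KMT2C. These 3 settings keep fewer peaks or overlaps by construction.

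Leaving out 1 library gave 2282 to 39546 regions, the highest without ATAC library 2 and 4757 without ATAC library 1. In lung PRMK against lung PRM, gained and lost counts ran from 53 to 1110 and 218 to 3330 (H3K4me1), 174 to 1126 and 34 to 186 (H3K4me2), and 592 to 5381 and 50 to 345 (KMT2C). In liver PRM against lung PRM they ran from 25 to 356 and 6 to 147 (H3K4me1) and 599 to 5902 and 12 to 50 (KMT2C). Without lung PRMK library 1 the H3K4me1 losses were 411. Share differences ran from -18.1 to -6.96, 4.03 to 18.3, 23.7 to 40.8, -1.30 to 5.65 and 26.8 to 45.7 points in the same order. The cause of these changes was not tested. Within 5 kb of a gene start lay 17.9% of the regions. Nearest genes called were 51 with DESeq2 and 0 to 31 leaving out 1 RNA library. Of 306 alternative fold changes of 34 genes, 4 changed sign, for Sox11 (-1.07 to 0.092) and Sox2 (-0.34 to 0.44, including 0.08 and 0.10).

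No paired analysis was possible because the RNA groups share fewer than 2 replicate numbers and the peak results come from no fitted test. The 500-base and 300-base centre windows were not run.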
